A study of Mus musculus with 18 samples.

Results

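A set of 6 red cell genes was followed in a cell line of another lineage: the transcription factors Klf1, Gata1 and Tal1, the receptor gene Epor, and the adult globin genes Hbb-b1 and Hba-a1 with the clusters around them. They were taken by name as 6 of the 22208 protein-coding genes of the annotation on the 19 autosomes and X. For each gene, every called peak of RAD21 or NIPBL within 5 kb of the annotated start, in the gene body or within 100 kb on either side was collected from 14 peak lists. Overlapping peaks were merged, which gave 295 regions of the 346850 in the genome: 88 around Klf1, 27 around Gata1, 42 around Tal1, 66 around Epor, 29 around Hbb-b1 and 43 around Hba-a1.

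Gata1, Tal1 and Klf1 are DNA-binding factors that set up the red cell programme, Epor codes for the receptor through which erythropoietin keeps red cell precursors alive, and the globin genes code for the protein chains of haemoglobin. In red cell precursors the globin genes are driven by distant enhancers, those of the alpha cluster lying in introns of the neighbouring gene Nprl3 and those of the beta cluster lying upstream of Hbb-y. RAD21 is a subunit of cohesin, the ring that extrudes chromatin loops, and it accumulates where the DNA-binding protein CTCF stops the ring, while NIPBL loads cohesin and drives extrusion and is usually found at active promoters and enhancers.

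The 18 ChIP-seq samples come from v-Abl transformed mouse pro-B cells, a B cell precursor line used to study antibody gene rearrangement. They comprise 10 RAD21 and 4 NIPBL libraries with a peak list each, and 4 inputs that were not used here. Every library came from cells that were JH-del, dCas9 expressing, Emu-Bcl2 and RAG2 deficient and that had been kept for 4 days in 3 uM STI-571, an inhibitor of the Abl kinase. The control libraries carried no further change (2 for RAD21, 2 for NIPBL), and the block libraries were also Sg1-sgRNA expressing (2 and 2). A separate RAD21 set compared 3 wild type libraries with 3 that were Ig2b-del/del, called deleted here. The labels name no separate cultures, so p-values measure only the spread between these libraries, which may be technical, and they do not say how many clones the line stands for.

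The lists held 44783 to 123573 peaks covering 11.6 to 34.4 Mb, and the read depth behind them is unknown. Among the dCas9 RAD21 lists, peak names followed one pattern for replicate number 1 and a different one for number 2. Of the 33 regions around the 6 genes with RAD21 in all 10 lists, the fold was higher in replicate 2 at 33 in the controls and at 31 in the block libraries. Folds are the authors' own values, enrichment over the caller's background, and lists were not on one scale. Of 9 pro-B marker genes such as Pax5, 9 had NIPBL within 5 kb of the start in all 4 NIPBL lists (51.7% of all genes did) and 7 had RAD21 in all 10 RAD21 lists (23.4%). The counts were 22 and 15 of the 45 red cell genes found, 2 and 0 of 6 T cell markers, and 3 and 1 of 6 myeloid markers.

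The sequences under some of the sites that recur below are shown first, so that RAD21 sites holding a CTCF core can be compared by their letters. They were not picked by strength, and strong flanks without a core are named further below. All are mm9, taken from the reference genome and written 5′ to 3′ on the strand named. In the first set the capitals mark a CTCF core, searched on both strands as CCA, any 2 bases, AG, any 2 bases and GGC in a row. A looser form, added after the matches had been seen, allows any base at the A of CCA and so contains the first. The sites in the body of Klf1, beside Gata1, Tal1 and Epor held the stricter form, and those of the globin clusters held either form:
Klf1 coding exon (chr8:87427130-87427190, minus strand): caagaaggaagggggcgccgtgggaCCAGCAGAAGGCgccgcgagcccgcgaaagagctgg
Gata1, 62.2 kb downstream (chrX:7492954-7493014, plus strand): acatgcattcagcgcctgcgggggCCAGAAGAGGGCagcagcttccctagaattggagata
Gata1, 39.3 kb upstream (chrX:7594447-7594507, minus strand): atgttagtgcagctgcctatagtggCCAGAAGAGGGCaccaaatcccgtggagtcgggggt
Tal1, 29.3 kb downstream (chr4:114758348-114758408, minus strand): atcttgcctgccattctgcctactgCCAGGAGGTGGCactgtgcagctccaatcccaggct
Tal1, 40.9 kb downstream (chr4:114769945-114770005, minus strand): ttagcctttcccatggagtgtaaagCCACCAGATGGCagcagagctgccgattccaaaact
Tal1, 45.4 kb downstream (chr4:114774382-114774442, plus strand): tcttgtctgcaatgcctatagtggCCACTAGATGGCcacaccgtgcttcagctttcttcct
Epor, 14.7 kb upstream (chr9:21782649-21782709, plus strand): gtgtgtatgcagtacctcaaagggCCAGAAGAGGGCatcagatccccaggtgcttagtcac
Hbb-b1, 35.01 kb downstream (chr7:110941584-110941644, plus strand): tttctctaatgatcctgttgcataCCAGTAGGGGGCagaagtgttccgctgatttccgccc
Hbb-b1, 21.1 kb downstream (chr7:110955564-110955624, minus strand): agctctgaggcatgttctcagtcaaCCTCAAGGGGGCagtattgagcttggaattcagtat
Hba-a1, 66.5 kb upstream (chr11:32117008-32117068, plus strand): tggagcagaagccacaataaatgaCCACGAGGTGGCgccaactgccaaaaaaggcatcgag
Hbq1b start (chr11:32186910-32186970, minus strand): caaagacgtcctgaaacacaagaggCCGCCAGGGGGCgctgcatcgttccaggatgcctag
Hbq1a start (chr11:32200015-32200075, minus strand): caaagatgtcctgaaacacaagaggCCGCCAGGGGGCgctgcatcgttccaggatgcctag

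The next sequence is 200 bases of a site 3′ of Tal1 at which NIPBL was called in all 4 lists and RAD21 in none of 10, shown for contrast with the RAD21 site that lies beside it 40.9 kb downstream. The capitals mark a GATA motif (AGATAA or TGATAA on either strand), here TGATAA on the plus strand, and one looser CTCF core read on the minus strand:
Tal1, 39.6 kb downstream (chr4:114768518-114768717, plus strand): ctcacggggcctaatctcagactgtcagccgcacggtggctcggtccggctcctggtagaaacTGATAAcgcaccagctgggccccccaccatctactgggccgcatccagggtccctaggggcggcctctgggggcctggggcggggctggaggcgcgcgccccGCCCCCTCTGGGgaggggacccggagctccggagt

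At their starts the 6 genes fell into 3 kinds. Klf1 and Hba-a1 had RAD21 within 5 kb of the start in all 10 RAD21 lists (23.4% of all genes did), and NIPBL was there in 4 of 4 lists for Klf1 and 3 of 4 for Hba-a1. Tal1 had NIPBL in 4 of 4 lists and RAD21 in 0 of 10, and Epor had NIPBL in 4 of 4 and RAD21 in 1 of 10, the first block library. At neither start did a single region recur in all 4 NIPBL lists. The highest NIPBL fold at the Tal1 start was 3.47 and 3.61 in the controls and 3.51 and 3.18 with block. The median fold of all peaks in those lists was 2.83 to 3.77. RAD21 was in none of its 10 lists at 3 starts (37.5% of all genes), NIPBL in all 4 lists at 3 starts (51.7%) and in none at 2 (20.5%), and both proteins in every list at 1 start, that of Klf1 (18.6%). RAD21 in all 10 lists without any NIPBL was found at 0 of the 6 starts (1.09%). Gata1 and Hbb-b1 had no peak of either protein in any of the 14 lists, which held for 15.9% of all genes. In the wide window, which includes 100 kb on either side, all 6 genes had RAD21 in 10 of 10 lists (86.2% of all genes) and NIPBL in 4 of 4 (96.6%), and 84.8% of all genes had both.

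**Figure D1:**
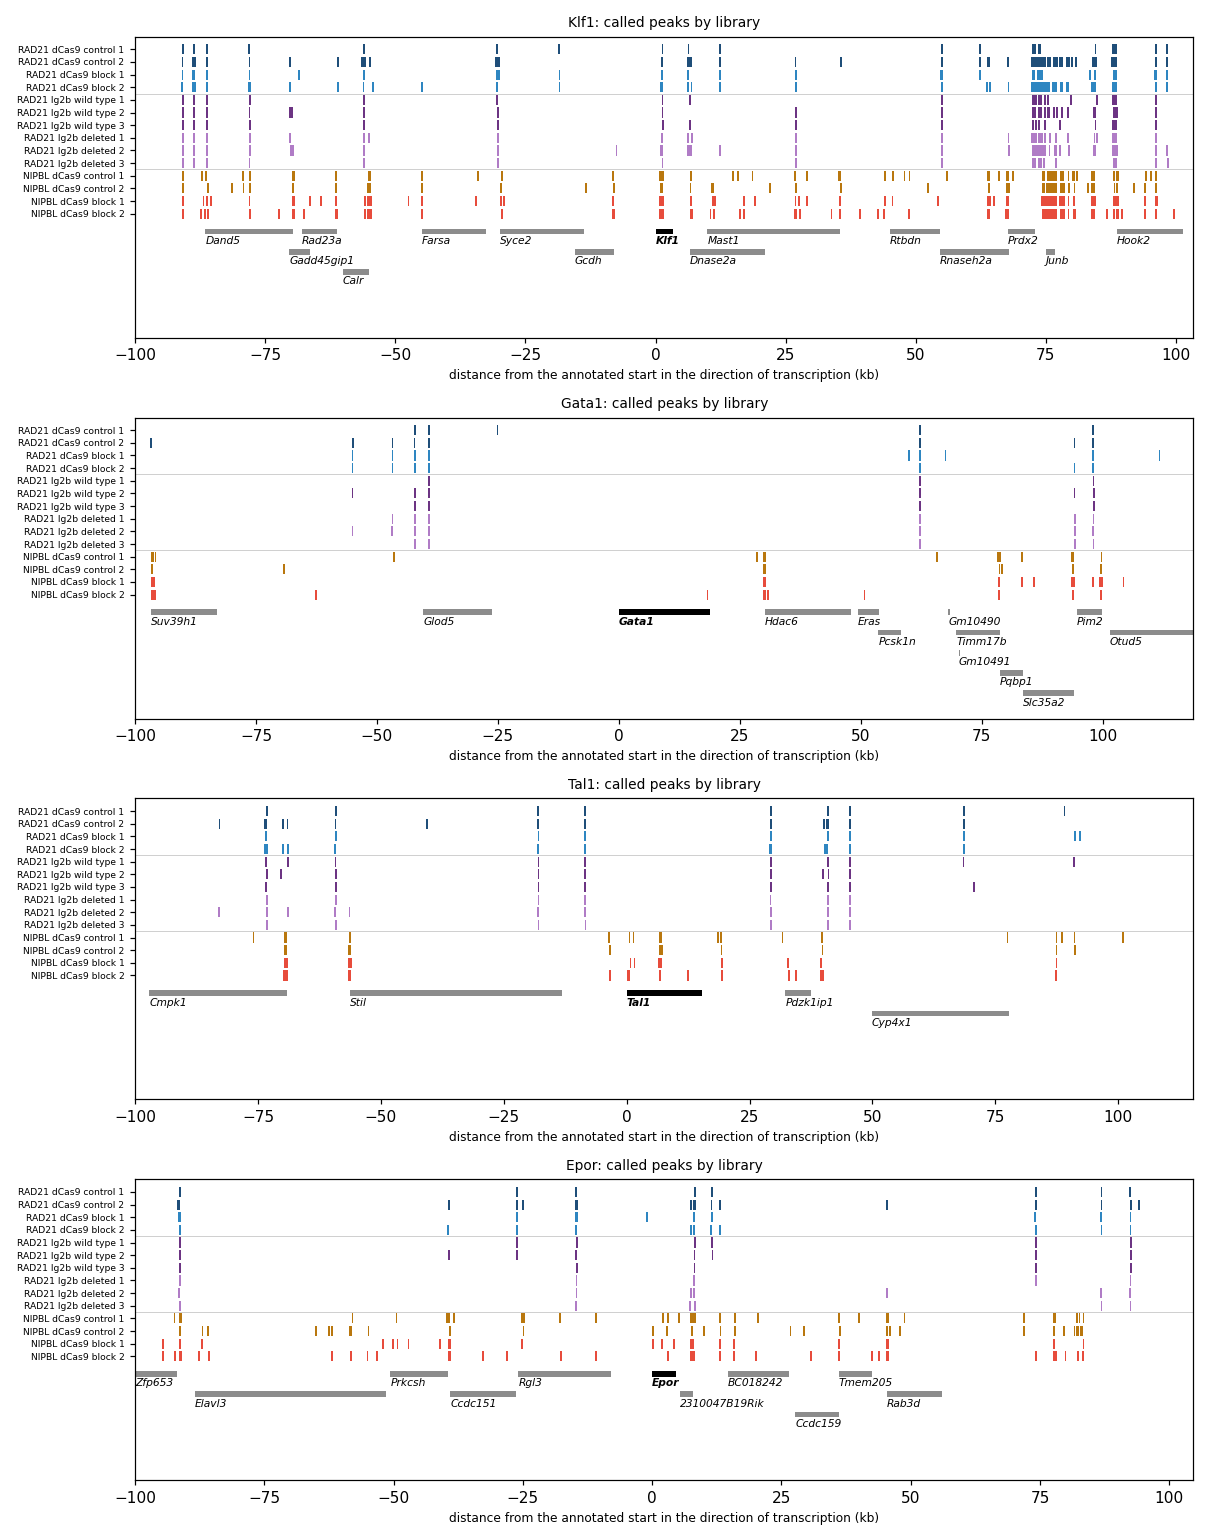
Called peaks of each of the 14 libraries around Klf1, Gata1, Tal1 and Epor, by distance from the annotated start in the direction of transcription (kb, horizontal axis; short peaks are drawn at a fixed minimum width), with protein-coding genes below. RAD21 (blue and purple) and NIPBL (brown and red) share the site in the body of Klf1, while around Tal1 the columns of RAD21 peaks and those of NIPBL peaks lie at different places.

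Klf1, an activator of the adult beta globin gene, lies in a dense stretch of genes on chr8:87425827-87429194. Its own site (chr8:87426541-87427503, centred 1.3 kb downstream of the start) spanned coding sequence of Klf1 and was called in all 14 lists. The RAD21 fold there was 6.89 and 14.2 in the controls, 7.71 and 12.96 with block, 7.39, 7.86 and 5.85 in the wild type and 9.51, 8.81 and 9.86 in the deleted libraries. The NIPBL fold was 4.40 and 5.62 in the controls and 6.91 and 5.71 with block. The site ranked high within each list, at or above 75% to 93.1% of the RAD21 peaks and 89.7% to 97.4% of the NIPBL peaks. Within 5 kb of the start NIPBL covered 594 to 945 bp and RAD21 244 to 554 bp, with no overlap. The share of all genes without overlap was not counted for this window. Shorter RAD21 coverage was usual there, with a median log2 difference from NIPBL of -0.95 over all genes tested in the dCas9 libraries.

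Around Klf1, 11 of the 88 regions had RAD21 in all 10 lists and 22 had NIPBL in all 4, and 7 had both. The widest stretch lay beside Junb, an AP-1 factor gene that pro-B cells also use, where peaks merged over 5137 bp (chr8:87497979-87503115), with 974 to 4511 bp covered by RAD21 and 2672 to 2988 bp by NIPBL. The highest RAD21 fold of the window was at the Hook2 start (88.2 kb downstream) in 9 of 10 lists and at Junb in 1. Starts of neighbouring genes carried NIPBL in all 4 lists with RAD21 in 0 to 10, few at Calr, a chaperone gene (NIPBL in 4, RAD21 in 2), Farsa, which codes for a tRNA synthetase subunit (4 and 1), and Gcdh, which codes for a mitochondrial dehydrogenase (4 and 0), and more at Dnase2a, a DNase gene (4 and 8), and Hook2 (4 and 10). Libraries had 16 to 30 RAD21 peaks and 33 to 43 NIPBL peaks around Klf1, the most of the 6 genes, and 3 to 9 and 7 to 11 around Gata1.

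Gata1, the founding GATA factor of the red cell lineage, lies on chrX:7536386-7555197 and its body held 1 peak in all, of NIPBL in the second block library. RAD21 flanked it on both sides without NIPBL. The upstream site, 39.3 kb away in an intron of Glod5 (chrX:7594259-7594694), had RAD21 folds of 9.10 and 12.9 in the controls, 9.08 and 12.6 with block, 7.65, 7.70 and 6.0 in the wild type and 8.31, 9.39 and 7.50 in the deleted libraries. It carried the highest RAD21 fold of the window in all 10 lists. The downstream site, 62.2 kb away near Pcsk1n (chrX:7492786-7493213), had folds of 6.38 and 9.93, 6.68 and 11.5, 5.22, 7.62 and 4.69, and 6.07, 6.91 and 6.34 in the same order. Another region with RAD21 in all 10 lists lay within Pim2, 98.1 kb downstream, and had NIPBL in 1 list.

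NIPBL around Gata1 was at the starts of other genes. All 4 lists had it at Hdac6, which codes for a deacetylase (30.1 kb downstream), Timm17b, a mitochondrial import gene (78.7 kb downstream), Pim2, a kinase gene (99.7 kb downstream), Slc35a2, a sugar transporter gene (94.1 kb downstream), and Suv39h1, which codes for a histone methyltransferase (96.4 kb upstream). At Hdac6, Timm17b and Pim2 RAD21 was called in 0 of 10 lists, at Suv39h1 in 1 and at Slc35a2 in 6. None of these 5 sites lay within Gata1.

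Tal1, the helix-loop-helix factor that blood stem cells and red cell precursors need, lies on chr4:114729031-114744360. Around it, 7 regions had RAD21 in all 10 lists and NIPBL in none, at 73.3, 59.3, 17.99 and 8.5 kb upstream and 29.3, 40.9 and 45.4 kb downstream. Those make up 16.7% of its 42 regions, against 4.23% of all regions in the genome. The 29.3 kb site, beside Pdzk1ip1 (chr4:114758073-114758658), carried the highest RAD21 fold of the window in all 10 lists: 9.25 and 14.2 in the controls, 11.5 and 14.4 with block, 7.28, 9.64 and 7.81 in the wild type and 8.46, 14.1 and 11.1 in the deleted libraries. At the 8.5 kb upstream site the folds were 7.69 and 10.4, 7.16 and 10.1, 5.49, 5.60 and 4.68, and 4.75, 4.34 and 3.79. There the 4 dCas9 libraries were all above the 6 Ig2b libraries. The share of all regions for which this held was not counted, and lists were not on one scale.

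NIPBL took other places around Tal1. Regions with NIPBL in all 4 lists and RAD21 in none included those in a coding exon of Tal1 6.8 kb downstream of its start (chr4:114735417-114736282), and 39.6 and 87.4 kb downstream. In the Tal1 exon the NIPBL folds were 3.78 and 3.16 in the controls and 4.66 and 3.76 with block. At 39.6 kb they were 3.14 and 2.95, then 4.27 and 3.09. In the same lists the median fold of all peaks was 2.83 to 3.77, and at the 39.6 kb site the fold was at or above 48.1% to 70.8% of the peaks of its own list. The 39.6 kb NIPBL site and the RAD21 site at 40.9 kb lay side by side without overlap. The strongest NIPBL site of the window was at the start of Stil, a gene of centriole assembly (56.3 kb upstream), in all 4 lists.

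Epor lies on chr9:21763343-21768020. No single region near its start recurred in all 4 NIPBL lists: the covered length within 5 kb of the start was 359 and 245 bp in the NIPBL controls and 648 and 106 bp with block, split over 6 regions each called in 1 or 2 lists. RAD21 covered 0 bp there in 9 lists and 250 bp in the first block library. The nearest region shared by all 14 lists was 8.1 kb downstream of the start, 3′ of the gene and at the start of 2310047B19Rik (chr9:21759619-21760850). Its RAD21 folds were 5.28 and 8.74 in the controls, 4.62 and 8.10 with block, 4.67, 4.68 and 4.56 in the wild type and 5.20, 5.96 and 5.66 in the deleted libraries, and its NIPBL folds were 3.67 and 3.42, then 5.97 and 4.74.

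On the other side of Epor, 14.7 kb upstream in an intron of Rgl3 (chr9:21782373-21782906), RAD21 was called in all 10 lists without NIPBL. Folds were 6.69 and 12.1 in the controls, 7.15 and 12.5 with block, 7.07, 4.98 and 5.51 in the wild type and 6.38, 9.56 and 7.54 in the deleted libraries. It held the highest RAD21 fold of the window in 7 of 10 lists. NIPBL alone was found in all 4 lists at 4 regions, one of them the start of Tmem205, 36.1 kb downstream.

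**Figure D2:**
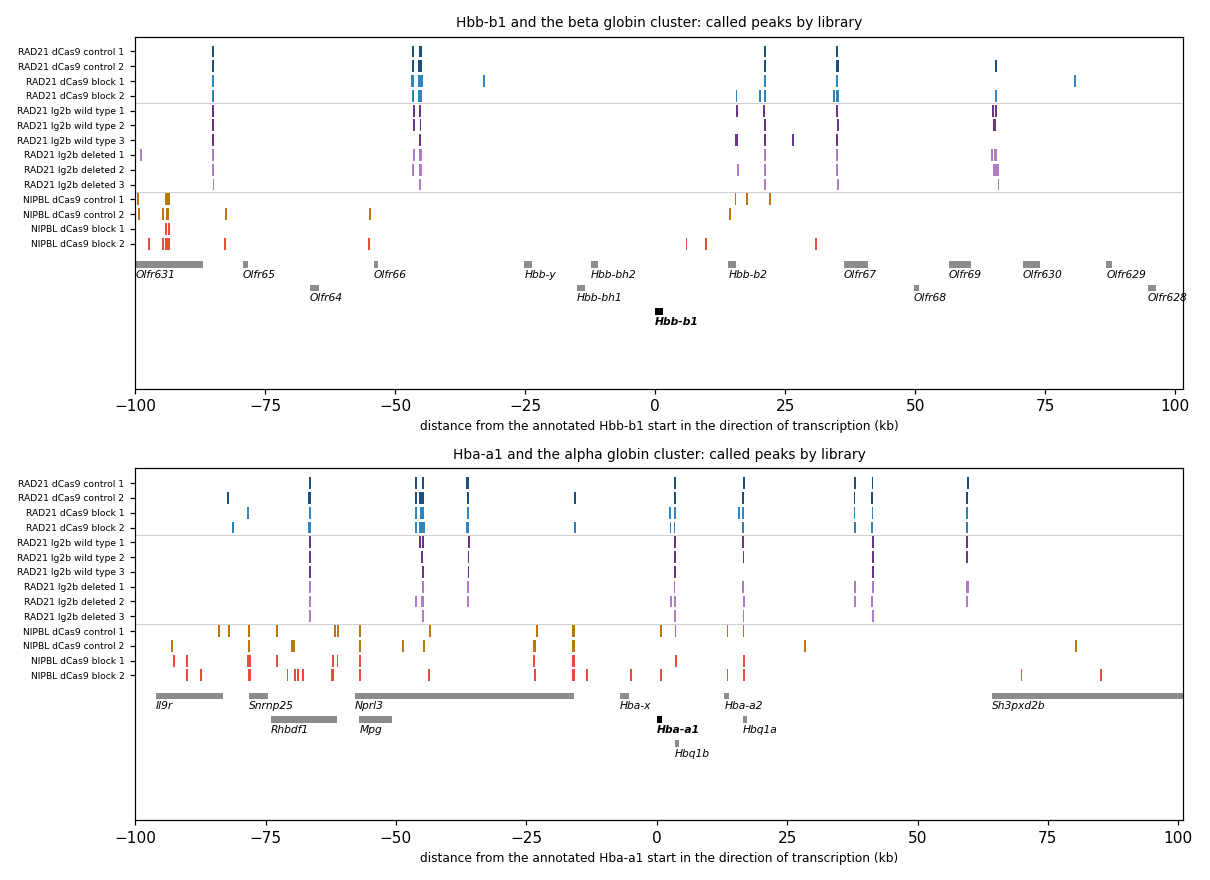
Called peaks of each library around Hbb-b1 and Hba-a1, by distance from the annotated start in the direction of transcription (kb, horizontal axis; short peaks are drawn at a fixed minimum width), with protein-coding genes below. RAD21 columns stand 45.1 kb upstream and 21.1 kb downstream of Hbb-b1 with nearly nothing between them, whereas the alpha cluster has RAD21 at 3.4 kb and 16.5 kb downstream of Hba-a1, at the theta globin genes.

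The beta globin cluster held RAD21 at its edges and almost none among its genes. Hbb-b1 (chr7:110975048-110976610, minus strand) sits with Hbb-b2, Hbb-bh1, Hbb-bh2 and Hbb-y among olfactory receptor genes. The upstream site (chr7:111021212-111022277), beyond Hbb-y and 45.1 kb upstream of Hbb-b1, had RAD21 folds of 9.09 and 14.03 in the controls, 7.39 and 12.2 with block, 9.22, 8.92 and 10.3 in the wild type and 9.04, 10.4 and 10.4 in the deleted libraries. The downstream site (chr7:110955293-110955876), 21.1 kb away and beyond Hbb-b2, had folds of 5.84 and 7.60, 6.55 and 9.47, 5.24, 4.60 and 5.08, and 6.12, 5.34 and 5.15. Both were in all 10 RAD21 lists and in no NIPBL list, and the upstream site ranked at or above 86.5% to 96.1% of its list.

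Between these flanks lay 65335 bp without a region common to the 10 RAD21 lists or to the 4 NIPBL lists. RAD21 had 0 and 0 peaks there in the controls, 1 and 2 with block, 1, 0 and 1 in the wild type and 0, 1 and 0 in the deleted libraries. NIPBL had 2 and 1 peaks in the controls and 0 and 2 with block. The region that recurred most was at the 3′ end of Hbb-b2 (chr7:110960615-110961350), with RAD21 in 4 lists and NIPBL in 1. Peaks covered at most 0.955% of the interval in any library. Further out, RAD21 was in all 10 lists without NIPBL at 35.01 kb downstream and 85.1 kb upstream, and NIPBL was in all 4 lists at 1 place, an intron of Olfr631 93.8 kb upstream, with folds of 2.98, 3.66, 3.92 and 3.18.

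In the alpha cluster both flanks and the interior were occupied. Hba-a1 lies on chr11:32183511-32184465 and its duplicate Hba-a2 12978 bp downstream of it. RAD21 was in all 10 lists at 4 regions: in Rhbdf1 66.5 kb upstream, in an intron of Nprl3 44.9 kb upstream (chr11:32137905-32139038), at the start of the theta globin gene Hbq1b 3.4 kb downstream (chr11:32186729-32187170), and 41.3 kb downstream (chr11:32224640-32225059). In the Nprl3 intron the folds were 11.1 and 13.8 in the controls, 10.6 and 12.9 with block, 9.74, 9.80 and 7.42 in the wild type and 12.6, 11.8 and 9.94 in the deleted libraries. They were at or above 84.9% to 97.6% of the peaks of their lists, and 1 NIPBL library had a peak of 51 bp there.

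At the Hbq1b start the RAD21 folds were 5.54 and 9.56 in the controls, 6.39 and 7.88 with block, 4.95, 5.19 and 4.27 in the wild type and 5.28, 6.26 and 5.52 in the deleted libraries. NIPBL was called there in 1 control (3.34) and 1 block library (4.28). The start of the second theta gene, Hbq1a (chr11:32199819-32200301), had RAD21 in 9 of 10 lists, with folds of 3.35 and 6.47, 4.79 and 6.16, 4.28 and 3.23 in 2 of the wild type libraries, and 4.43, 5.10 and 3.96. NIPBL was called there in 3 of 4 lists. The windows printed for the starts of these 2 genes differ at 1 of 61 positions, C7T counted from the first base printed. Reads from such near-identical copies, which also include Hba-a1 with Hba-a2 and Hbb-b1 with Hbb-b2, may not be placed with certainty, and how the authors treated them is not given in the sources used here.

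NIPBL in the alpha cluster was at the starts of the housekeeping genes. It was in all 4 lists at Nprl3, a regulator of mTORC1 signalling (15.98 kb upstream of Hba-a1), with folds of 5.28, 5.01, 7.38 and 5.80, at Mpg, a DNA glycosylase gene (56.9 kb upstream), with 4.98, 4.36, 6.10 and 6.03, and at Snrnp25, a spliceosome gene (78.2 kb upstream), with 4.60, 4.42, 5.33 and 3.43. RAD21 was called at these starts in 2, 0 and 1 of 10 lists. Within introns of Nprl3, a region 23.5 kb upstream of Hba-a1 had NIPBL in 3 lists and RAD21 in none. In the 85601 bp between the 44.9 kb and 41.3 kb flanks, libraries had 2 to 6 RAD21 peaks and 4 to 8 NIPBL peaks.

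**Figure D3:**
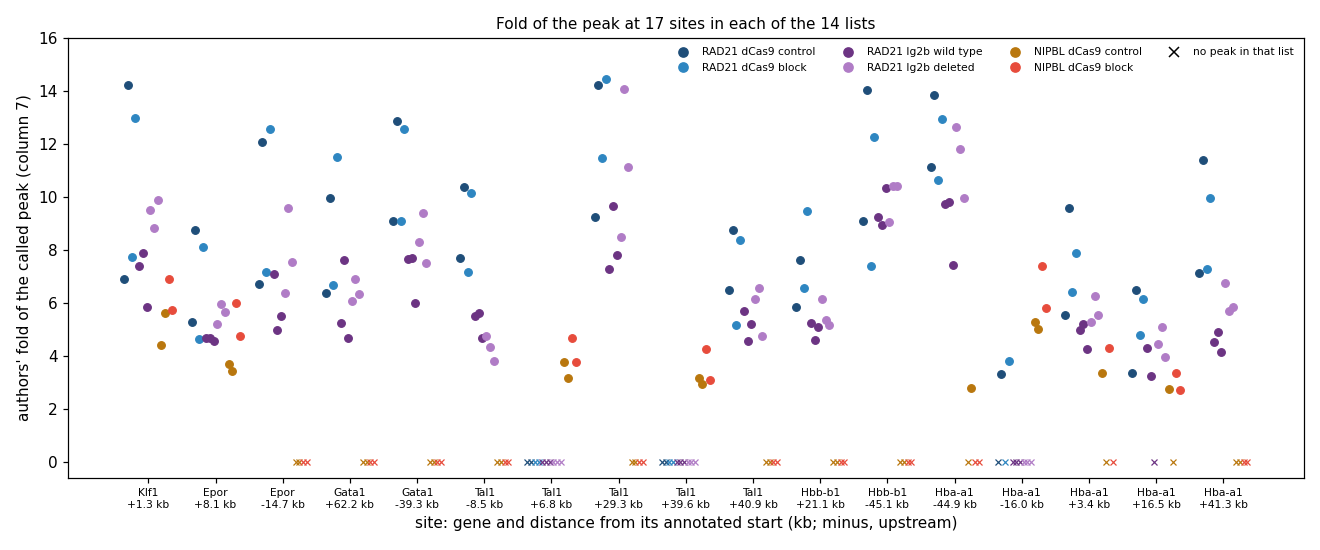
The authors' fold of the called peak at 17 sites (vertical axis) in each of the 14 lists, with a cross at 0 where a list had no peak. Sites are named by gene and distance from its start in kb. At Tal1 the sites at 6.8 and 39.6 kb carry NIPBL points and RAD21 crosses, and the neighbouring sites at 29.3 and 40.9 kb carry the reverse.

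Over the 295 regions, RAD21 was in all 10 lists at 33 and NIPBL in all 4 at 46, and both at 9. Over all 346850 regions these were 25580, 23499 and 4566. RAD21 in all 10 without any NIPBL was found at 20 regions, or 6.78%, against 4.23% of all regions, and NIPBL in all 4 without any RAD21 at 15, or 5.08%, against 2.61%. Of the 9 regions with both proteins throughout, 7 lay around Klf1 and 2 around Epor. At the share of all regions, 1.32%, under 1 would fall around each of the other genes, so their absence there is not a difference. Of the 295, 161 were called in 1 library alone, 54.6%, against 63.4% of all regions.

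The sites were described by their letters and their place, with the share over all regions of the same kind. The stricter CTCF core was in the central 300 bp of 10 of the 20 RAD21 regions without NIPBL (45.5% of all such regions), of 5 of the 9 with both (15.2%) and of 0 of the 15 NIPBL regions without RAD21 (1.08%). The looser form was in 11 of the 20 (52%), 6 of the 9 (27.7%) and 2 of the 15 (18.4%). A GATA motif (AGATAA or TGATAA) was in 6 of the 20 RAD21 regions (27% of all such regions) and in 1 of the 15 NIPBL regions (6.39%), the 39.6 kb site of Tal1. CCACACCC, a motif Klf1 can bind, was in 1 of the 20 and 0 of the 15, against 1.68% and 1.84%.

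Flanks could lack a core, strong ones among them. The looser form was found at the beta site 21.1 kb downstream. Neither form was in the central 300 bp of the upstream beta site or of the alpha sites 44.9 kb upstream and 41.3 kb downstream. At the 41.3 kb site the RAD21 folds were at or above 50.8% to 86.3% of the peaks of their lists. A match is a description of letters, CTCF was not among the proteins mapped, and no match says only that these letters are not in this window. In the alpha cluster the stricter core in Rhbdf1 ran along the globin genes' direction of transcription. The matches at both theta genes, of the looser form only, ran against that direction and so faced the Rhbdf1 core across Hba-a1. Another stricter core, 2536 bp downstream of the Hba-a1 start in a region with RAD21 in 3 of 10 lists, ran along it. Of the 22 regions with NIPBL in all 4 lists and RAD21 in 1 to 9, 15 had their centre within 1 kb of an annotated start (60.5% of all such regions), as had 7 of the 15 without RAD21 (10.5%), 2 of the 9 with RAD21 in all 10 (34.5%) and 1 of the 20 RAD21 regions without NIPBL (1.29%).

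**Figure D4:**
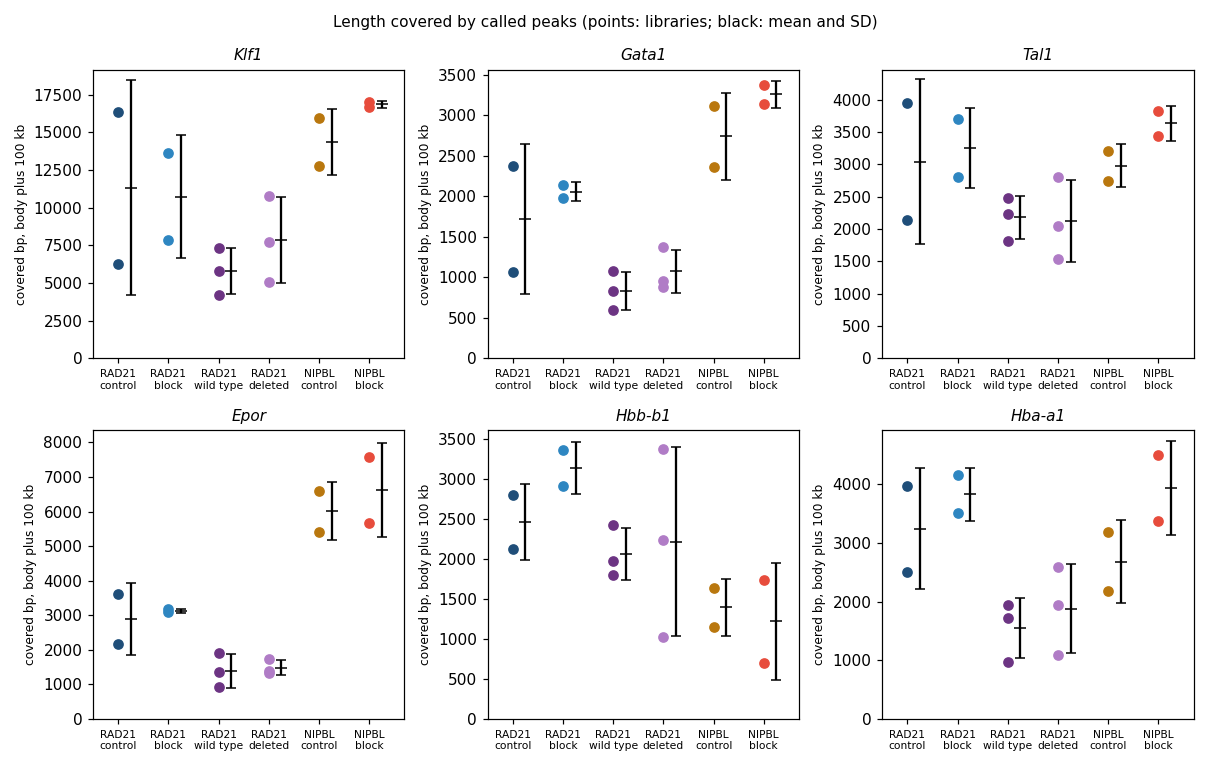
Length covered by called peaks in each gene body plus 100 kb on either side (bp, vertical axis from 0), one point per library, with the mean and SD of the group in black (n = 2 or 3). Klf1 has the longest coverage in every group, and for Hbb-b1 the 4 RAD21 dCas9 libraries lie above the 4 NIPBL libraries.

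By the share of the window covered, Klf1 was first in both sets of dCas9 controls and in the Ig2b wild type, and the order of the other 5 genes varied. In the RAD21 controls the share was 5.56% ± 3.50 (SD, n = 2) for Klf1, 1.61% ± 0.516 for Hba-a1, 1.41% ± 0.506 for Epor, 1.41% ± 0.595 for Tal1, 1.22% ± 0.237 for Hbb-b1 and 0.786% ± 0.421 for Gata1, and no neighbours in that order after Klf1 differed beyond their spread. In the NIPBL controls the share was 7.06% ± 1.09 for Klf1, 2.94% ± 0.409 for Epor, 1.38% ± 0.152 for Tal1, 1.34% ± 0.353 for Hba-a1, 1.25% ± 0.244 for Gata1 and 0.692% ± 0.174 for Hbb-b1. There Klf1 and Epor stood apart from each other and from the rest, and Hbb-b1 was lowest.

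The dCas9 block asks whether a guide against Sg1 changes cohesin, and around these genes no change passed the test. Covered length in the gene body plus 100 kb was compared on log2(bp + 500) with limma over all genes. The fit had no term for the replicate number, although same-numbered RAD21 libraries of the 2 groups deviated together (correlation 0.852). Differences between the numbers therefore counted as spread, which made a call less likely. With that term added, limma called 1 of the 19087 genes tested and none of the 6. For Hbb-b1 RAD21 covered 2123 and 2798 bp in the controls and 2908 and 3363 bp with block, which did not overlap. Higher without overlap held for 1 of the 6 genes and for 6.55% of all genes tested, and lower without overlap for 0 and for 0.398%. The log2 difference for Hbb-b1 was 0.30 (SE 0.59, adjusted p 1), and 0.38 and 0.23 within replicate numbers 1 and 2. For Klf1 the values were 6277 and 16355 bp, then 7825 and 13596 bp, a difference of 0.02 (SE 0.65) that was 0.30 within number 1 and -0.26 within number 2. Gata1, Tal1 and Epor were likewise higher within number 1 (0.75, 0.33 and 0.43) and lower within number 2 (-0.21, -0.08 and -0.17), while Hba-a1 was higher within both (0.41 and 0.06, 0.23 over all 4 libraries). Of 19087 genes tested limma called 0 (0%), with 1 at an unadjusted p under 0.05, and it called 1 without the second control.

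Region by region, block gave RAD21 1 new region and removed 0 among the 102 called in any of these 4 libraries, against 1.15% gained and 0.281% lost of all regions. The new one lay 901 bp before Hbq1b (chr11:32185932-32186153), with folds of 3.43 and 3.83 over 139 and 179 bp, and it was also called in 1 deleted library (4.06). It held the CTCF spelling CCAGAAGAGGGC. These are short, weak peaks beside the site at the Hbq1b start that all 10 lists share.

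For NIPBL, block libraries covered more around 4 of the 6 genes without overlap, as they did around 38.8% of all genes tested, and less around 0, against 4.66%. Klf1 went from 15925 and 12787 bp to 16688 and 17036 bp, Gata1 from 3118 and 2362 bp to 3141 and 3374 bp, Tal1 from 3211 and 2749 bp to 3824 and 3440 bp, and Hba-a1 from 3185 and 2181 bp to 3377 and 4498 bp. The log2 differences were 0.12 to 0.49 for all but Hbb-b1 (-0.20), beside a median of 0.23 over all genes, and with quantile normalization those of Klf1 and Epor turned negative (-0.23 and -0.21). No gene of 20763 was called by limma (0%), although 1336 had an unadjusted p under 0.05, and the smallest adjusted p of the 6 was 0.712, for Hba-a1. Without the first block library 37 genes were called and without the second 361, none of the 6 among them. NIPBL gained 5 and lost 2 of 220 regions (2.43% and 1.69% of all regions). The gained included a coding exon of Pdzk1ip1 beside Tal1, with folds of 3.63 and 2.78, and an exon of Calr that carried RAD21 in all 10 lists.

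The Ig2b deletion left these genes' coverage within the spread of the libraries. Klf1 had 5787, 7293 and 4227 bp in the wild type and 7739, 10745 and 5043 bp in the deleted libraries, or 0.38 more on the log2 scale (SE 0.32, adjusted p 0.542). Hbb-b1 had 2420, 1798 and 1969 bp, then 2241, 3380 and 1020 bp, a difference of -0.01 (SE 0.33, adjusted p 0.982). For Tal1 it was -0.05, for Epor 0.09, for Hba-a1 0.19 and for Gata1 0.24, and groups overlapped for all 6 genes, while 8.87% of all genes were higher and 0.27% lower without overlap. Over all 17798 genes tested limma called 1 (0.00562%), and the median difference was 0.34. Without deleted replicate 3, the list with the fewest peaks, 6819 genes were called, without any other library 5 to 38, and of the 6 genes 0 each time. No region was gained or lost by this rule among 78, against 0.947% and 0.203% of all regions.

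Whether block changed RAD21 and NIPBL differently was tested by the interaction in one limma fit, a test added after the data had been seen. No gene was called of 20671, 17 had an unadjusted p under 0.05, and the interaction for the 6 genes ran from -0.50 (Hbb-b1) to 0.25 (Hba-a1), each with an adjusted p of 1.

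**Figure D5:**
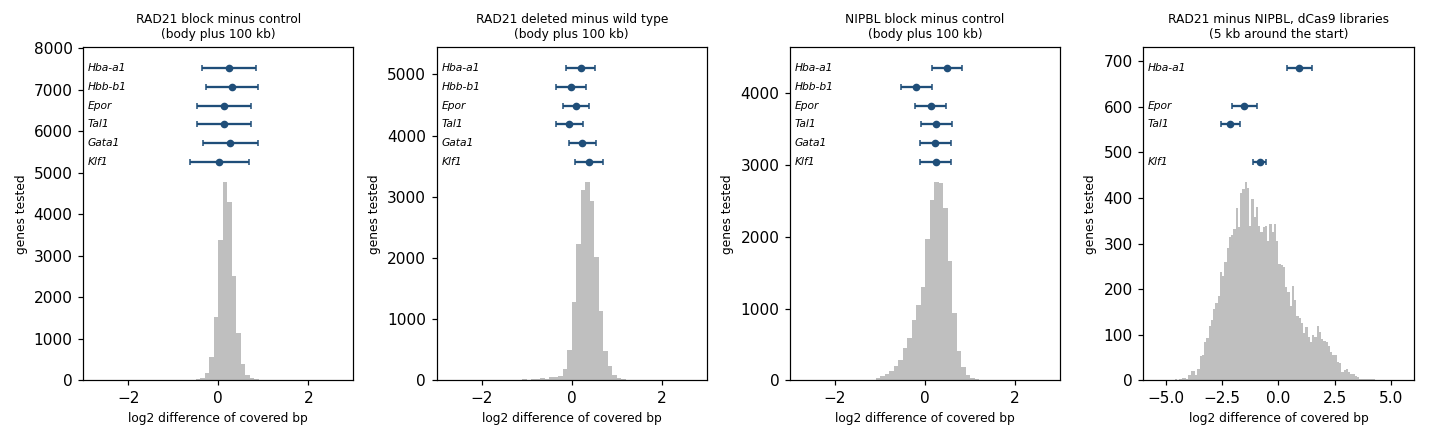
Log2 difference of covered bp for the 6 genes (points, with bars of 1 standard error) above the distribution over all genes tested (grey, number of genes on the vertical axis) in the 4 comparisons. In the first 3 panels the 6 genes lie within the bulk of all genes, and in the last, at the start, Tal1 lies at -2.14 and Hba-a1 at 0.92. Gata1 and Hbb-b1 had no peak there and were not tested.

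RAD21 and NIPBL themselves were compared at the start, 4 dCas9 libraries of each, on log2(bp + 100) within 5 kb. Each protein has its own antibody and its own lists, so a difference is one of called length. For Tal1 RAD21 covered 0 bp in all 4 libraries and NIPBL 503, 91, 356 and 616 bp. The log2 difference was -2.14 (SE 0.42, limma adjusted p 0.00595), lower in 4 of 4 libraries, and its size depends on the 100 bp added, since RAD21 was at 0. Tal1 met the minimum of 100 bp through NIPBL alone, so its direction was fixed once it entered the test, and the call is no independent support for it. Of 13632 genes tested 42.2% were called, 10.2% higher and 32% lower for RAD21, and the median over all genes was -0.95. With quantile normalization the split was 3274 higher and 3122 lower in place of 1396 and 4362, and Tal1, at -0.87, was no longer called (adjusted p 0.107). With peaks of −log10 q of at least 3, no NIPBL peak was left at the Tal1 start.

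The other 3 genes with peaks at the start did not pass, and for each the call changed with the setting. For Klf1 the groups did not overlap, and how many of all genes share this at the start was not counted. RAD21 covered 328, 430, 328 and 554 bp there and NIPBL 945, 594, 838 and 861 bp. That is a difference of -0.84 (SE 0.29, adjusted p 0.0505), beside a median of -0.95 over all genes. Other settings put it on either side of the threshold (0.0111 to 0.826). The lowest of these values is from the scaled wide window, another measure, and scaling at the start gave a limma adjusted p of 0.0236. For Epor it was -1.53 (SE 0.56, adjusted p 0.058), which passed with the replicate block (adjusted p 0.0261) and with scaling (0.0449). It was under the threshold in 6 of 17 alternatives (0.00043 to 0.745). These include the wide window, another measure, plain (limma adjusted p 0.0192) and scaled (0.00043). RAD21 covered 0 bp at the Epor start in all but the first block library (250 bp). Epor thus met the minimum of 100 bp through NIPBL, and the passes at the start are no independent support for its direction. For Hba-a1 RAD21 covered 254, 328, 451 and 516 bp and NIPBL 390, 0, 70 and 387 bp, a difference of 0.92 (SE 0.56, adjusted p 0.209). It passed with quantile normalization (1.76, adjusted p 0.0073), with −log10 q of at least 3 (1.83, adjusted p 0.000284) and with lists of equal length (1.63, adjusted p 0.0199).

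A comparison over the wide window was added after the data had been seen. The window around Hbb-b1 stood on the RAD21 side and that around Epor on the NIPBL side. Around Hbb-b1 RAD21 covered 2123, 2798, 2908 and 3363 bp and NIPBL 1643, 1146, 700 and 1740 bp, which is 0.90 on the log2 scale (SE 0.30, adjusted p 0.0376 in limma). Between the flanks of the beta cluster itself RAD21 covered 0, 0, 161 and 624 bp and NIPBL 242, 132, 0 and 217 bp. Around Epor RAD21 covered 2163, 3629, 3083 and 3169 bp and NIPBL 6602, 5417, 5665 and 7591 bp, a difference of -0.96 (SE 0.29, adjusted p 0.0192). The groups did not overlap for either, as for 10.8% of all genes on the RAD21 side and 15.6% on the NIPBL side. Of 20671 genes 25% were called, 11.5% higher and 13.4% lower. With lists scaled to the same total covered length 46.9% were called, 19.3% higher and 27.6% lower: Klf1 (-0.69, adjusted p 0.0111) and Gata1 (-0.69, adjusted p 0.00851) too, beside Hbb-b1 (0.82) and Epor (-1.07).

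Other red cell genes, from lists chosen with earlier results of these data known, were compared at their starts by the same fit, in which 10.2% of all genes were higher and 32% lower for RAD21. Genes with peaks of 1 protein entered through that protein, so the counts are a description. Of 13 red cell membrane genes 6 could be tested and 4 were higher for RAD21, among them Ermap, a blood group gene (2.06, SE 0.25, limma adjusted p 0.000692), Spna1, the erythroid alpha spectrin gene (1.66), and Epb4.2, the protein 4.2 gene (1.57). The median of the 6 was 1.62, against -0.95 for all genes. The counts for the other lists were small. Of 9 transcription factor genes tested, with a median of -0.99, Gfi1b was higher for RAD21 (1.42), and Tal1, Zbtb7a (-2.51) and Ldb1, an adaptor that bridges GATA factors and enhancers (-2.85), were lower, shares close to those of all genes. Among 5 receptor and iron uptake genes Kit, the stem cell factor receptor gene (-2.57), and the iron transporter gene Slc11a2 (-1.71) were lower, and in haem synthesis Fech, the last enzyme's gene, was lower (-2.37) of 7 tested, whose median went from -0.54 to 0.35 with quantile normalization. With scaling or quantile normalization these genes other than Tal1 and Fech, which quantile normalization left uncalled, were called in the same direction. Of the 8 globin genes matched, 4 had no peak at the start in any list, and over the wide window the 5 beta cluster genes were all called higher for RAD21, which is 1 observation, since their windows share the same peaks. In none of the 3 comparisons of conditions was a gene of these lists called.

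By their profile over the 14 libraries, the starts most like Tal1 were those of Ralb (Pearson r 0.999) and Plxnb1 (0.998), both with peaks in 4 lists. For Epor they were Grin2a (0.963) and Ptgs1 (0.942), and for Hba-a1 Sox6 (0.967). These r describe log2 covered length over 14 libraries that share depth and calling within each set, and for Tal1 they rest on 10 libraries at 0. Klf1, with a peak in every list, and Gata1 and Hbb-b1, with none, were not searched.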

How the data were processed

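The ChIP-seq peak lists, 14 in all, have 9 columns each. Per the submitters' processing notes the genome build was mm9 and the tools included Bowtie2 2.2.8, SAMtools 1.8 and MACS2, whose version and settings are not given in the sources used here. Each library was called on its own. The deposited fold is a ratio over the caller's background, the authors' caller also wrote −log10 p and −log10 q, and the deposited score column was not used. Peak names in the dCas9 and NIPBL lists point to a control library, while those of the Ig2b lists name none. Depth is unknown, so no counting interval was given.

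Genes were from GENCODE vM1 (NCBIM37, mm9), the start being the outermost annotated one. Covered bp is a library's peak length in a window, overlaps counted once. Genes with a mean of at least 500 bp (wide window) or 100 bp (start) were tested in R 4.3.3 with limma 3.58.1 (both sides), with Benjamini-Hochberg adjustment over all genes and a threshold of 0.05, and with the state (block or control) as covariate for RAD21 against NIPBL. Regions were merged over all lists at 1 bp overlap. A region counted as gained or lost when all libraries of a group had it and no library of the compared group did. Other steps used Python 3.11.15, and the fits were tested on simulated data. Named were the 6 genes with their regions, the globin genes and the genes nearest to regions described, called genes of the red cell lists and the 2 genes most like each; some of these are not reported here. Neighbours of Klf1 and the Hbb-b2 region were picked after values were seen. Alternatives were another number of bp added, no filter, scaling to the same total, quantile normalization, −log10 q of at least 3, lists matched in length, the replicate block, other window sizes, all 10 RAD21 libraries in one fit, 50% overlap and leaving out each library. The members and lists were chosen with earlier results of these data known.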

Additional observations from a re-analysis of the deposited data

How the results depend on the processing

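The number of genes called moved by over 1.5 times in these settings, and the cause was not tested. For RAD21 with block it went from 0 to 1 with the replicate block, and to 0 to 1 when a library was left out. For the deletion it went from 1 to 18 with 100 bp added, 0 without the filter, 281 with scaling (103 higher, 178 lower), 178 with quantile normalization, 132 with −log10 q of at least 3, 101 with lists of equal length, 105 with the replicate block, 0 with a 50 kb flank, and 5 to 6819 when a library was left out. For NIPBL with block it went from 0 to 41 with scaling and 0 to 361 when a library was left out. For RAD21 against NIPBL it went from 5758 to 9717 in the scaled wide window, and it stayed within 1.5 times, at 3946 to 7799, when a library was left out. Scaling moved the median of all genes from 0.18 to -0.01 for RAD21 with block, from 0.34 to 0.03 for the deletion and from 0.23 to 0.10 for NIPBL with block.

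Signs that turned were all of uncalled differences. For RAD21 with block they turned to -0.19 (Klf1), -0.0664 (Tal1) and -0.0583 (Epor) with scaling, to -0.21, -0.0684 and -0.0547 with quantile normalization, and for Klf1 to -0.0303 with lists of equal length and -0.0266 with a 50 kb flank. For the deletion they turned to -0.0062 (Gata1), -0.17 (Epor) and -0.10 (Hba-a1) with scaling, to -0.075 (Klf1), -0.16 (Epor) and -0.10 (Hba-a1) with quantile normalization, to 0.38 (Hbb-b1) with −log10 q of at least 3, and to -0.0082 (Epor) with a 50 kb flank. For NIPBL with block they turned to -0.0224 (Epor) with scaling and to -0.23 (Klf1) and -0.21 (Epor) with quantile normalization. For RAD21 against NIPBL, Hba-a1 was at -0.0014 in the scaled wide window.

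With a library left out, differences for RAD21 with block ran from -0.64 to 0.68 (Klf1), -0.17 to 0.70 (Gata1), -0.26 to 0.50 (Tal1), -0.19 to 0.45 (Epor) and -0.053 to 0.52 (Hba-a1). For the deletion they ran from -0.23 to 0.12 (Tal1), -0.0941 to 0.28 (Epor), -0.32 to 0.36 (Hbb-b1) and -0.024 to 0.46 (Hba-a1), and for NIPBL with block from -0.0724 to 0.32 (Epor) and -0.65 to 0.25 (Hbb-b1). Where 1 library was left in a group, limma assumes that it varies like the others. At the Tal1 start RAD21 against NIPBL was called with each of the 8 libraries left out. Its direction was fixed by its entry through NIPBL, so these calls add no independent support.

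Same-numbered libraries of the 2 groups deviated together by a correlation of 0.852 (RAD21 dCas9), 0.0526, 0.205 and 0.265 (Ig2b) and 0.191 (NIPBL), and the labels do not say what a number shares. In the RAD21 dCas9 set, with 2 numbers only, the number also goes with the pattern of peak names, and values within each number stand beside the differences with block. The replicate block called Epor at the start, RAD21 against NIPBL (adjusted p 0.0261), and none of the other differences of the 6 genes that were not called without it. Epor had entered that test through NIPBL. With a −log10 q of at least 3, 22 of 48 counts of lists with a peak moved, with lists of equal length 9, and with 50% overlap 0. Unknown depth, groups of 2 or 3 and calling settings that are not given limit all comparisons.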

Other observations

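The spelling CCAGAAGAGGGC, counted after the matches had been seen, accounted for 21 of the 40 CTCF core matches around the 6 genes, in 38 regions. Of the 11 matches in regions with RAD21 in all 10 lists and no NIPBL it made up 5, among them those beside Gata1 on both sides and upstream of Epor, and of the 19 in regions that neither protein held throughout it made up 13. Its share among core matches in all regions of the genome was not counted, so the spelling cannot be called particular to these genes.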
